A study of Homo sapiens with 10 samples.

Results

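The arrays taken at 6 h were set against those taken at 3 h of treatment of MOLT-4 cells with MABL, an antibody against CD47. MOLT-4 is a leukaemia line of immature human T cells. The arrays compared were identified by their titles and are 4 of the 10 arrays of the series, 2 at 6 h and 2 at 3 h. The other 6 arrays, from 0 h, 0.5 h and 1 h, entered only the estimate of the spread and are given where a level helps. Per the labels, both groups, and the 0 h arrays as well, carried 10 ug/mL MABL together with 50 ug/mL of an agent called GAM, an abbreviation left as given. Cells grown for 3 h or 6 h without the antibody were not analysed here, so the antibody, GAM and the time in culture cannot be told apart. No label says that replicates came from separate cultures, so the spread behind each p-value is that between these arrays and may be technical. Of 22215 probe sets that are not Affymetrix controls, 4276 reached a deposited value of 25 on at least 2 of the 10 arrays and were tested, and those with 1 gene symbol stood for 2819 genes.

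CD47 is a membrane protein that binds thrombospondin and SIRP alpha, and some antibodies against it kill leukaemic T cells. Cells short of oxygen stabilise the alpha subunits of hypoxia-inducible factors (HIFs), which are otherwise hydroxylated and destroyed. HIFs bind DNA at a core of the letters ACGTG and raise genes for glucose uptake, glycolysis, mitophagy and oxygen sensing. A level below is the square root of a deposited value, taken as log2. The submitters do not state this scale, and every size given depends on it. A probe set was called when limma's adjusted p was under 0.05.

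The median level of the tested probe sets was 6.71 ± 0.075 at 6 h and 6.65 ± 0.13 at 3 h (SD, n = 2 arrays each). Array replicates correlated across probe sets at 0.991 at 6 h and 0.992 at 3 h, against 0.968 to 0.982 between the times. Spike-in controls, 18 bacterial and phage probe sets, averaged 10.63 ± 0.032 at 6 h and 10.76 ± 0.034 at 3 h. The 6 probe sets of 18S ribosomal RNA averaged 11.67 ± 0.49 at 6 h and 11.20 ± 0.65 at 3 h. Spike-in level thus moved with the comparison, and with it as a covariate the calls given next numbered 112 higher and 47 lower, and 25 of the 75 named calls were lost. Of 12 T-lymphoblast markers, 8 were at log2 5 or more on at least 2 arrays, among them CD3D, CD3E, CD1A and PTCRA, while CD7, CD2, CD4 and CD8A were not. Their summed level was 73.7 to 73.9 at 6 h and 73.6 to 74.0 at 3 h. The lists for other cells gave 1 gene of 7 for B cells (IGHM), 1 of 9 for epithelium or fibroblasts (COL1A1) and none of 7 myeloid or 4 erythroid genes on the array at that level.

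Between 3 h and 6 h more probe sets rose than fell, and the 5 largest rises were in ADM, BHLHE40, BNIP3L, P4HA1 and BNIP3, all known to respond to low oxygen. With levels under 5 set to 5, ADM and BNIP3 stayed first among the 15 largest rises, while NRN1, JAM3, ANXA1 and EIF3E, at 2.07 to 2.37, passed BNIP3L at 1.91 and P4HA1 and BHLHE40 at 1.27 each. At 6 h 214 of the 4276 probe sets were higher than at 3 h (5.00%) and 89 were lower (2.08%), so that 7.09% were called in all. Counted by genes with the brightest probe set of each, 157 rose (5.57%) and 57 fell (2.02%). The median change was 1.02 among probe sets called higher and -0.77 among those called lower, against -0.0047 over all tested. Both 6 h arrays were more than 2 times the 3 h geometric mean in 102 probe sets (2.39%), and both were under 0.5 times that mean in 7 (0.164%). Both 6 h arrays lay above both 3 h arrays in 24.2% of the tested probe sets and below both in 25.8%. In bulk RNA, fewer cells of a type and less RNA per cell cannot be told apart. The calls rest on a spread shared with the other times: fitted on the 6 h and 3 h arrays alone, 8 probe sets were higher and 0 lower in limma, with 725 at an unadjusted p under 0.05. The count of higher probe sets also hung on single arrays, at 325 and 83 without the first and the second 3 h array, and 169 and 84 without the first and the second 6 h array. The lower count was 44 without 3 h replicate 1, 59 without either replicate 2 and 51 without 6 h replicate 1.

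**Figure D1:**
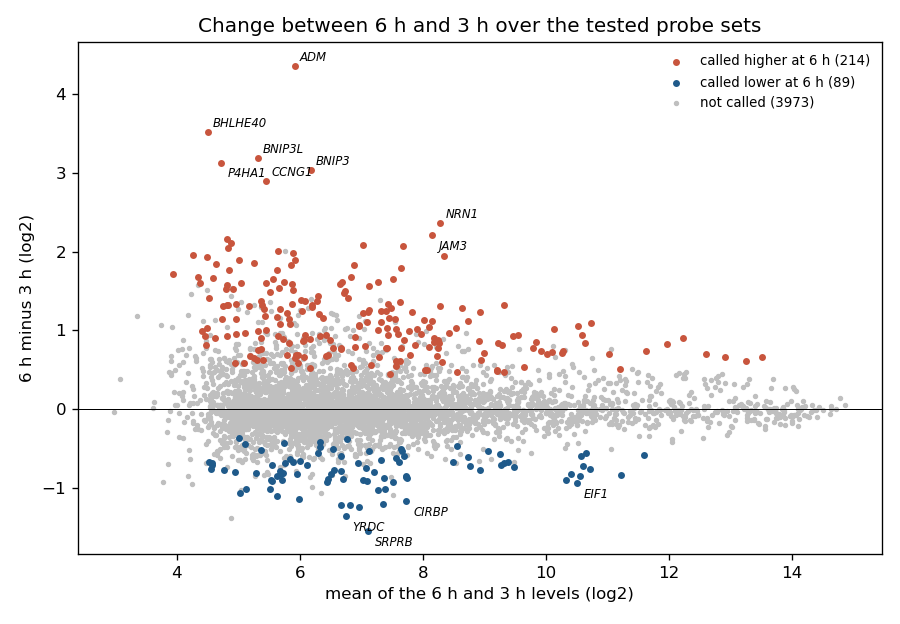
The vertical axis is the 6 h minus 3 h difference in log2 level and the horizontal axis the mean log2 level of the 2 times, with 1 point per tested probe set. The 214 probe sets called higher at 6 h lie in red above 0, reaching 4.37 for ADM, and the 89 called lower lie in blue, reaching -1.55 for SRPRB.

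The 2 directions differed in where they left the genes relative to the earlier arrays. Of the 214 higher probe sets, 102 (47.7%) had both 6 h arrays above all 8 others, against 4.96% of all tested. The 6 h mean was above both 0 h arrays in 127, between them in 39 and below both in 48, against 1159, 646 and 2471 of the 4276 tested. On the values as deposited, a group of rises thus brought genes back toward their 0 h level, and another went beyond it. The 0 h arrays differed in the array measures. Spike-ins averaged 9.80 and 10.20 at 0 h against 10.61 and 10.66 at 6 h, and 18S 8.41 and 9.65 against 12.01 and 11.32. The tested medians were 6.98 and 6.94 at 0 h against 6.65 and 6.76 at 6 h. Positions relative to 0 h were not adjusted for these differences. Of the 89 lower probe sets, 82 (92.1%) had both 6 h arrays below all 8 others, against 12.6% of all tested, and 88 had a 6 h mean below both 0 h arrays, as did 2471 of the 4276 tested. These positions use the 3 h arrays that also define the calls and are descriptions. The filter admitted 73 probe sets only through the 6 h arrays, and 27 of these were among the higher calls. For all 73 the filter itself favoured a higher level at 6 h. When the filter used only the 0 h, 0.5 h and 1 h arrays, 182 of the 214 and 86 of the 89 calls were kept.

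The promoters of 4 hypoxia genes that rose are shown because they carry the HIF core letters. Each is the 250 bases before the RefSeq gene start of GRCh38.p14, 5′ to 3′ on the gene's strand, with ACGTG or its reverse complement CACGT in capitals. BHLHE40 lies on the plus strand at chr3:4979187-4979436, P4HA1 on the minus strand at chr10:73096867-73097116, BNIP3 on the minus strand at chr10:131981924-131982173 and HK2 on the plus strand at chr2:74833877-74834126.
BHLHE40: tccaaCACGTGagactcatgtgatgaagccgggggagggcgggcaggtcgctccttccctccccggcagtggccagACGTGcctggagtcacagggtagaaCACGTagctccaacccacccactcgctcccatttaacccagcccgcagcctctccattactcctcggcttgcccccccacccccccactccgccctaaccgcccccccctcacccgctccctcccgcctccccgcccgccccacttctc
P4HA1: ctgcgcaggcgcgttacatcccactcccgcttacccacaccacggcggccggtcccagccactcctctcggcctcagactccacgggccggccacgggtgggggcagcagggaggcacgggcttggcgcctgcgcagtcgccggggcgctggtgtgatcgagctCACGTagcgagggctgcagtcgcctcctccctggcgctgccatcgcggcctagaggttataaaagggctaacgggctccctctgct
BNIP3: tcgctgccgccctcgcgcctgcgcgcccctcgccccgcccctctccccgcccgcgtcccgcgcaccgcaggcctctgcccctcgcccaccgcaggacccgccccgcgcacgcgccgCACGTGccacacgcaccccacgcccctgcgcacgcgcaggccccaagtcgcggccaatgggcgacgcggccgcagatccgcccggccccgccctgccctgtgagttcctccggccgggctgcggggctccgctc
HK2: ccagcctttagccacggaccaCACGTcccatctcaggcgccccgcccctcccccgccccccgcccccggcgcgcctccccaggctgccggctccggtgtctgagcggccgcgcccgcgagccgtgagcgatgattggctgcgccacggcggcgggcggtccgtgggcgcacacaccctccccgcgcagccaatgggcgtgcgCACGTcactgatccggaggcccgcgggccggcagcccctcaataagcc
BHLHE40 held 3 such places, starting at -245, -174 and -149 from the gene start, HK2 held 2, at -229 and -48, P4HA1 held 1 at -86 and BNIP3 held 1 at -134. Of 14 called genes on the HIF-1 target and glycolysis lists described below, 13 had a promoter of 300 bases, from 250 before to 50 after the start, and 9 of these (69.2%) held ACGTG on either strand. The share was 35.2% of genes called higher, 39.6% of genes called lower, 29.5% of all tested genes and 21.6% of all 27305 RefSeq promoters. CACGTG, which contains the core on both strands, was in 38.5% of the 13, 14.1% of genes called higher, 22.6% of genes called lower and 11.7% of tested genes. The endoplasmic reticulum stress response element was in 0 of the 13 and 0.167% of tested genes, and TGATGNAA, a motif bound by ATF4, in 7.69% of the 13 and 1.59% of tested genes. ADM, HK1, PFKFB3 and RBPJ held no ACGTG in this window. A match is a description of the letters, not of binding. The 13 were taken from lists of known HIF-1 targets and glycolysis genes, drawn up with results of these data known. Their share with the HIF core is therefore no independent test.

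Genes of the response to low oxygen rose steeply, in an order that depends on levels below log2 5. ADM, which encodes the vasodilator peptide adrenomedullin, had levels of 7.96 and 8.23 at 6 h, against 4.06 and 3.41 at 3 h. It rose by 4.37 (SE 0.20, adjusted p = 2.61e-05), a 20.6-fold difference. Both 3 h arrays lay under log2 5, the level of the filter, and the change was 3.10 with levels under 5 set to 5. BHLHE40, a repressor of transcription, had levels of 6.48 and 6.06 at 6 h and 2.75 and 2.73 at 3 h, and rose by 3.53 (SE 0.136, adjusted p = 1.65e-05; 1.27 with the floor at 5). P4HA1, a subunit of the collagen prolyl hydroxylase, had levels of 6.14 and 6.40 at 6 h and 2.95 to 3.35 at 3 h, and rose by 3.12 (adjusted p = 0.00118; 1.27 with the floor). In all 3 genes both 6 h arrays stood far above both 3 h arrays. At 0 h their means were 2.89, 2.67 and 3.74, so these genes stood below the filter level at both earlier times and above it at 6 h. They, and BNIP3, passed the filter only through the 6 h arrays.

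BNIP3 and BNIP3L, related mitochondrial outer membrane proteins that recruit the autophagy machinery to mitochondria, rose together. BNIP3 had levels of 7.75 and 7.65 at 6 h and 4.87 and 4.46 at 3 h, a rise of 3.03 (SE 0.212, adjusted p = 0.000296). Its other tested probe set rose by 2.11. BNIP3L had levels of 6.62 and 7.20 at 6 h and 3.82 and 3.62 at 3 h, a rise of 3.19 (SE 0.178, adjusted p = 7.64e-05). Its brighter probe set rose by 1.79 (adjusted p = 0.0341), a call lost when any of the 4 arrays was left out. BNIP3 stood at 4.68 at 0 h, within the range of its 3 h arrays, whereas the steeper BNIP3L probe set stood at 5.13 at 0 h, above its 3 h level. BIK, a death-promoting protein of the same BCL2 family, had levels of 6.20 and 6.12 at 6 h and 5.38 and 5.17 at 3 h, and rose by 0.89 (adjusted p = 0.00899), a call lost without 3 h replicate 2. These were the 3 called among 10 measured BCL2 family genes, with 0 lower and a median change of 0.06. Over all tested genes 5.57% were called higher and 2.02% lower. With the filter on the early arrays 2 of 9 BCL2 family genes were called.

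**Figure D2:**
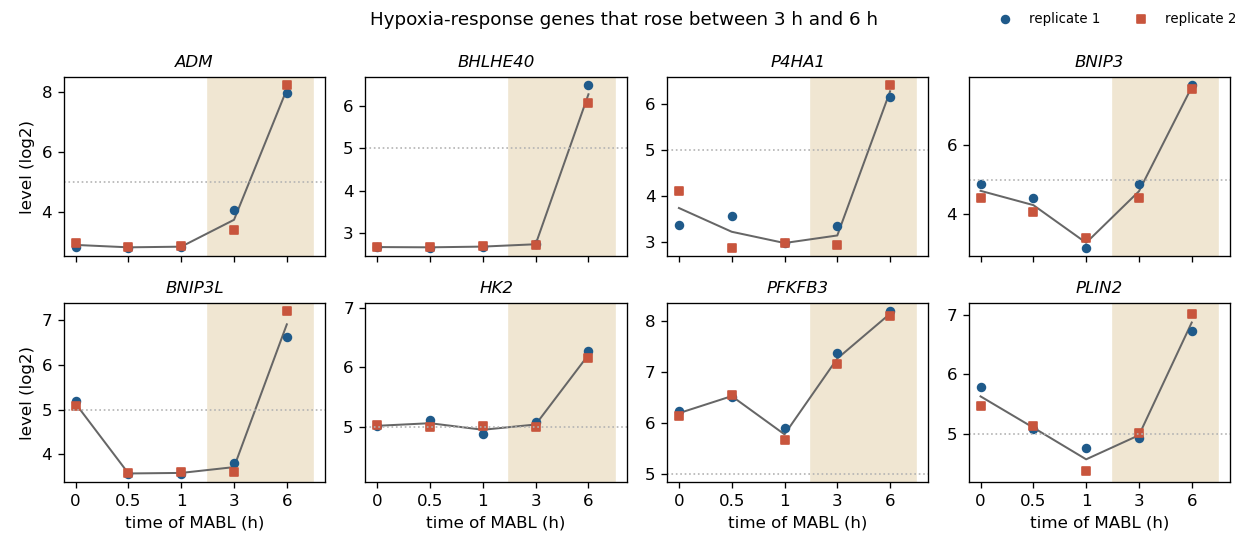
Log2 levels (vertical axes) of 8 hypoxia-response genes by hours of MABL, drawn at equal steps; circles are replicate 1, squares replicate 2 and lines means. The shaded 6 h and 3 h columns show both 6 h arrays above both 3 h arrays in each gene, with ADM at 7.96 and 8.23 at 6 h and at 4.06 and 3.41 at 3 h; the dotted line is log2 5.

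Of 37 genes listed as HIF-1 targets outside glycolysis, 15 were measured, 9 were called higher and 0 lower, and their median change was 0.94, against a background of 5.57% of genes called higher and a median of -0.0026 over all tested genes. The list was drawn up with results of these data known. As 6 of the 15 passed the filter only through the 6 h arrays, the count is not evidence by itself: with the filter on the 0 h, 0.5 h and 1 h arrays, 9 genes were measured and 4 called, with a median change of 0.59. Beside those already named, AK4, a mitochondrial adenylate kinase, rose by 1.62, FAM162A, a mitochondrial protein, by 0.94, RBPJ, the DNA-binding partner of NOTCH, by 0.90 and DDIT4, an inhibitor of mTORC1, by 0.73. RBPJ changed by 0.07 with the floor at 5 and was then not called. DDIT4 had levels of 10.31 and 10.28 at 6 h and 9.60 and 9.51 at 3 h, with 6.89 at 0 h, so most of its climb lay before 3 h. Its call (adjusted p = 0.0228) was lost without 3 h replicate 2 or either 6 h array, at adjusted p = 0.110, 0.0807 and 0.0889. JMJD6 and CXCR4, also on the list, changed by -0.46 and -0.11 and were not called. Of the HIF pathway itself, 3 components were measured and 0 called. HIF1A and VEGFA stayed below the filter, HIF1A at 3.34 and 3.75 at 6 h and 3.38 on both 3 h arrays, and VEGFA, on the probe set that moved most, at 3.47 and 4.15 at 6 h and 3.02 and 3.03 at 3 h.

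Glycolysis genes changed by less, and in the same direction in nearly the whole list. Of 26 listed genes 20 were measured, and 5 were called higher and 0 lower, beside 5.57% and 2.02% of all tested genes. A positive change was seen in 19, and the median was 0.45, against -0.0026 over all tested genes. The filter admitted 3 of the 20 only through the 6 h arrays and so favoured a positive change in these. With the filter on the early arrays, 5 of 17 were called and the median was 0.43. HK2, a hexokinase that commits glucose to metabolism, had levels of 6.26 and 6.15 at 6 h and 5.08 and 5.00 at 3 h, and rose by 1.17 (SE 0.102, adjusted p = 0.00095). HK1 had levels of 7.48 and 7.80 at 6 h and 6.63 and 6.42 at 3 h, a rise of 1.11 (adjusted p = 0.00469). PFKFB3, which makes the activator of phosphofructokinase, had levels of 8.19 and 8.09 at 6 h and 7.36 and 7.16 at 3 h, and rose by 0.88 (adjusted p = 0.00609). HK2 and HK1 had been level up to 3 h, with 5.02 and 6.67 at 0 h, while PFKFB3 stood at 6.19 at 0 h and had already climbed by 3 h. ALDOC, an aldolase, rose by 0.92 (adjusted p = 0.0168), and LDHA, which turns pyruvate into lactate, by 0.69 (adjusted p = 0.0188). Both of these calls were lost without 3 h replicate 2 or either 6 h array, at adjusted p of 0.0664 to 0.0913 for ALDOC and 0.0564 to 0.0927 for LDHA. LDHA differed from the hexokinases in that its 0 h mean of 12.70 lay between 13.03 and 12.89 at 6 h and 12.29 and 12.24 at 3 h. The glucose transporters SLC2A1 and SLC2A3 changed by 0.69 and 0.77, ENO2 by 0.78, PGK1 by 0.40 and GAPDH by 0.03, none of them called.

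Several genes outside these lists, chosen after their values were seen, moved in the same interval. PLIN2 and HILPDA, which coat lipid droplets and restrain their breakdown, both rose. PLIN2 had levels of 6.73 and 7.01 at 6 h and 4.94 and 5.02 at 3 h, a rise of 1.89 (adjusted p = 0.000987). HILPDA had levels of 7.88 and 7.48 at 6 h and 6.20 and 5.79 at 3 h, a rise of 1.68 (adjusted p = 0.00199). MKNK2, a kinase of the cap-binding factor eIF4E, had levels of 9.35 and 9.29 at 6 h, against 7.47 and 7.27 at 3 h and 7.47 at 0 h, and rose by 1.95 (adjusted p = 0.000772). This call held in the fit on the 4 arrays alone. INSIG1, which holds back sterol synthesis in the endoplasmic reticulum, had levels of 7.99 and 8.16 at 6 h and 7.11 and 7.14 at 3 h and rose by 0.95 (adjusted p = 0.00327). It was the 1 called of 8 measured cholesterol and fatty acid genes, beside 5.57% of all tested genes called higher. The ephrins EFNA3 and EFNA4, ligands of Eph receptors, rose by 0.96 and 1.67. Both passed the filter only through the 6 h arrays, so that the filter itself favoured a rise. EFNA4 changed by 0.43 with the floor at 5 and was then not called, and EFNA3 was not called without 6 h replicate 2.

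The 15 largest rises also took in genes of varied kinds. NRN1, a neurotrophic protein anchored to the membrane, had levels of 9.38 and 9.56 at 6 h and 7.21 and 7.0 at 3 h, and rose by 2.37 (SE 0.117, adjusted p = 3.58e-05). JAM3, a junctional adhesion molecule, had levels of 9.03 and 9.50 at 6 h and 7.10 and 7.0 at 3 h, and rose by 2.21 (SE 0.177, adjusted p = 0.00065). Both had been above their 3 h level at 0 h, at 8.0 and 7.83, and ended above it. CCNG1, a cyclin and target of p53, had levels of 6.78 and 7.03 at 6 h and 4.34 and 3.67 at 3 h, a rise of 2.90 (adjusted p = 0.00106; 1.90 with the floor at 5). It passed the filter only through the 6 h arrays. It was the 1 called of 6 measured p53 targets, beside 5.57% of all tested genes called higher. With the filter on the early arrays 0 of 5 were called in limma. ANXA1, a phospholipid-binding protein with anti-inflammatory actions, had levels of 8.03 and 8.12 at 6 h and 6.51 and 5.45 at 3 h, a rise of 2.09 (adjusted p = 0.00978) that was lost without 6 h replicate 2 (adjusted p = 0.061). Its 0 h mean was 7.96, level with 6 h. NUCB2, a calcium-binding protein, rose by 1.98 and BEND5 by 2.05 (0.86 with the floor). ZC3H15 and COMMD8 rose by 2.16 and 1.96, but with the floor at 5 they changed by 0.89 and 0.24 and were not called. BEND5 and COMMD8 passed the filter only through the 6 h arrays, as did PRIM1 and RBPJ.

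Chaperone genes were among those that came back toward the 0 h level. HSP90AA1, the stress-inducible cytosolic chaperone, had levels of 9.83 and 10.12 at 6 h and 8.89 and 8.41 at 3 h, and rose by 1.32 (SE 0.20, adjusted p = 0.00807). Its 0 h mean was 10.17, and its other 3 probe sets rose by 1.2 to 1.65. HSPD1, the mitochondrial chaperonin, had levels of 9.37 and 9.72 at 6 h and 8.60 and 8.02 at 3 h, with 9.71 at 0 h, and rose by 1.23 (adjusted p = 0.0205). Both genes dipped by 3 h and stood near their first level at 6 h. The HSP90AA1 call was lost without 6 h replicate 2 (adjusted p = 0.0569), and the HSPD1 call without either replicate 2 (adjusted p = 0.0965 and 0.109). HSPA4 rose by 0.52, to a 6 h level of 6.13 and 6.09 that was still under its 0 h mean of 7.20. That call was lost without each of the 4 arrays, and the other HSPA4 probe set changed by 0.36 and was not called. Of 10 measured heat shock genes 3 were called higher and 0 lower, beside 5.57% and 2.02% of all tested genes. The median change of the list was 0.34. It was 0.22 to 0.48 as each array was left out in turn, and these calls depended on single arrays. Of 7 measured genes of CCT, the chaperonin that folds actin and tubulin, a group chosen after its values were seen, CCT2 rose by 0.97, CCT4 by 1.23 and CCT8 by 1.28, while CCT3, CCT5, CCT6A and CCT7 changed by -0.37 to 0.62 and were not called. None of the 3 was called without 6 h replicate 2.

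HSPA5, the main chaperone of the endoplasmic reticulum, recovered in part. Its levels were 7.86 and 7.98 at 6 h and 6.90 and 5.80 at 3 h, with a 0 h mean of 9.30, and it rose by 1.57 (SE 0.298, adjusted p = 0.0207). The 3 h arrays lay more than 1 log2 unit apart, and the call was lost without either 6 h array (adjusted p = 0.0678 and 0.100). It was the 1 gene called higher, beside 1 called lower, among 14 measured genes of endoplasmic reticulum chaperones and the unfolded protein response. Over all tested genes 5.57% were called higher and 2.02% lower, and these counts are not read as a result about the list. Its median change was -0.12. HYOU1, the nucleotide exchange factor of HSPA5, had levels of 6.44 and 6.77 at 6 h and 7.38 and 7.20 at 3 h. It fell by 0.68 (adjusted p = 0.0431), a call lost when any of the 4 arrays was left out.

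**Figure D3:**
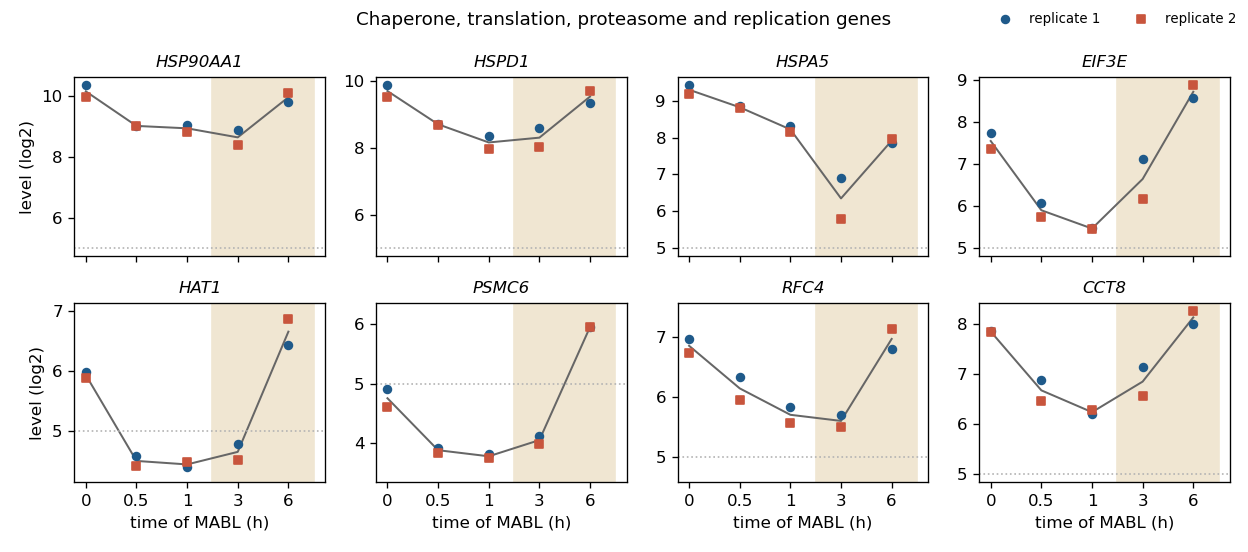
Log2 levels (vertical axes) of 8 chaperone, translation, proteasome and replication genes, with HAT1, by hours of MABL, drawn at equal steps; circles are replicate 1, squares replicate 2 and lines means. In each gene both shaded 6 h points lie above both shaded 3 h points, and HSP90AA1 at 9.83 and 10.12 at 6 h is near its 0 h mean of 10.17; the dotted line is log2 5.

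Of the translation factors 5 rose and 1 fell. EIF3E, a subunit of the factor eIF3 that carries the small ribosomal subunit to mRNA, had levels of 8.56 and 8.87 at 6 h and 7.12 and 6.16 at 3 h, and rose by 2.07 (SE 0.294, adjusted p = 0.00669). Its 0 h mean was 7.54, so it overshot its start. The subunits EIF3M and EIF3H rose by 1.31 and 1.02, EIF2S2, the beta subunit of eIF2, by 1.10 and EIF4G2, a scaffold related to eIF4G, by 1.04. On its other probe set EIF3M changed by 1.02 and was not called. The count of 5 was 1 without either replicate 2 and 8 without 3 h replicate 1, and EIF3H was called in none of the 4 omissions. EIF4A3, the helicase of the exon junction complex, fell by 0.61 (adjusted p = 0.0281), a call lost without 6 h replicate 2 or either 3 h array. Of 38 measured translation factors, 5 were called higher and 1 lower, beside 5.57% and 2.02% of all tested genes, and the median change was 0.12. Against these, EIF1, which guards start codon choice, fell: it had levels of 10.05 and 10.03 at 6 h and 11.05 and 10.92 at 3 h, a fall of 0.94 (adjusted p = 0.00277) seen as a call in 3 of its 5 probe sets. Its brightest probe set changed by -0.33 and was not called (adjusted p = 0.0902), so that EIF1 is not in the list's lower count. Cytosolic ribosomal proteins moved little, with RPL7 and RPL6 up by 0.90 and 0.73 among 54 measured and a median change of -0.016; both calls were lost without 3 h replicate 2 or either 6 h array. Of 43 mitochondrial ribosomal proteins MRPL35, MRPL3 and MRPL48 rose by 1.14, 0.79 and 0.65, with a median of 0.05, a count near the 5.57% of all tested genes. The list held 1 call without either replicate 2.

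Few genes of the proteasome and of DNA replication rose, 3 of 36 and 4 of 39 measured, beside 5.57% of all tested genes, and these counts are not read as a result about either group. PSMC6, an ATPase of the proteasome cap, had levels of 5.95 and 5.96 at 6 h and 4.13 and 3.99 at 3 h, and rose by 1.90 (SE 0.122, adjusted p = 0.000192; 0.95 with the floor at 5). It, too, passed the filter only through the 6 h arrays, so that the filter itself favoured a rise. PSMA4 and PSMA1, core subunits, rose by 1.12 and 0.82, both calls being lost without 3 h replicate 2 or either 6 h array. The other PSMA1 probe sets changed by 0.71, which was called, and 0.77, which was not. The other 33 of 36 measured proteasome genes were not called, and the median change was -0.04. With the filter on the early arrays 2 of 35 were called. RFC4, a subunit of the clamp loader, had levels of 6.80 and 7.15 at 6 h and 5.70 and 5.49 at 3 h, with 6.86 at 0 h, and rose by 1.37 (adjusted p = 0.00585). PRIM1, a primase, POLE2, a polymerase subunit, and MCM6, of the replicative helicase, rose by 1.14, 1.03 and 0.99. With the floor at 5, PRIM1 and POLE2 changed by 0.30 and 0.05 and were not called, and MCM6 was not called without 3 h replicate 2 or either 6 h array. RRM2, a ribonucleotide reductase subunit, fell by 0.73 on its brightest probe set (adjusted p = 0.035) and changed by 0.14 on the other. This call was lost when any of the 4 arrays was left out. The 39 measured replication genes had a median change of -0.05. HAT1, which acetylates newly made histone H4, had levels of 6.44 and 6.88 at 6 h and 4.78 and 4.51 at 3 h, with 5.93 at 0 h, and rose by 2.02 (adjusted p = 0.00065). TFRC, the transferrin receptor, rose by 1.14 to 8.38 and 8.78 at 6 h, against 7.68 and 7.21 at 3 h and 8.62 at 0 h, a call lost without either replicate 2 (adjusted p = 0.084 and 0.0889).

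The largest falls were smaller than the largest rises, and the genes that fell were of varied kinds. SRPRB, the membrane anchor of the receptor for the signal recognition particle, had levels of 5.99 and 6.68 at 6 h and 7.74 and 8.03 at 3 h. It fell by 1.55 (SE 0.269, adjusted p = 0.0149), a call lost without 3 h replicate 2 or 6 h replicate 1 (adjusted p = 0.0875 and 0.0559). The other called genes of that list of 21 measured were split in direction. SEC61A1 also fell, by 0.43, whereas SRP9, SSR1 and TRAM1 rose by 0.71, 0.88 and 1.15. Each of these 4 calls was lost without either replicate 2. The list thus held 3 called higher and 2 lower, beside 5.57% and 2.02% of all tested genes. On their other probe sets SSR1 and TRAM1 changed by 0.54 and 0.39 and were not called. YRDC, which makes a modified adenosine in tRNA, had levels of 6.16 and 5.98 at 6 h and 7.69 and 7.18 at 3 h, and fell by 1.36 (adjusted p = 0.00609). AKAP1, which tethers protein kinase A and mRNAs to mitochondria, fell by 1.25 and ATP2A2, the calcium pump of the endoplasmic reticulum, by 1.22. B4GALT1, TMEM11, NDUFAF4 and NFYC complete the 15 largest falls, at -0.92 to -1.11. NFYC changed by -0.28 to -0.64 on its 3 other probe sets, none called, its brightest by -0.34 (adjusted p = 0.321). TMEM11 was not called with the floor at 5, where it changed by -0.57, nor without 3 h replicate 1 or 6 h replicate 1, and NDUFAF4 was not called without 3 h replicate 1 or either 6 h array. CPT1A, the gate of mitochondrial fatty acid oxidation, had levels of 6.63 and 6.64 at 6 h and 7.45 and 7.65 at 3 h and fell by 0.92 (adjusted p = 0.00381); it was named after its values were seen.

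Single RNA-binding proteins fell. SRSF6, a splicing factor of the SR family, had levels of 6.81 and 6.69 at 6 h and 8.03 and 7.90 at 3 h, with 8.38 at 0 h, and fell by 1.21 (SE 0.106, adjusted p = 0.00095). Its other probe set changed by -0.45 and was not called. CIRBP, the cold-inducible RNA-binding protein, had levels of 7.05 and 7.25 at 6 h and 8.49 and 8.15 at 3 h, and fell by 1.18 and 1.14 on its 2 probe sets (adjusted p = 0.00327 for the steeper). PCBP2 fell by 1.02 on 1 probe set, while its 2 others changed by -0.11 and -0.04. Of 45 measured hnRNP and SR proteins, SRSF6 and SRSF3 fell (SRSF3 by 0.56) and SF3B1, of the U2 particle, rose by 1.18. The median change of the 45 was 0.04. Over all tested genes 2.02% were called lower and 5.57% higher. With equal array medians 6 of the list were called lower and 4 higher, and these counts are not read as a result about the family. SRSF3 changed by -0.55 and -0.09 on its other probe sets and SF3B1 by 1.54 on its other, none of them called. The SRSF3 call was lost without 3 h replicate 1 or either 6 h array and that of SF3B1 without 3 h replicate 2 or either 6 h array.

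Falls also took in amino acid carriers and nucleolar genes. SLC7A1, a carrier of arginine and lysine, had levels of 6.83 and 6.91 at 6 h and 7.98 and 7.80 at 3 h, and fell by 1.02 (SE 0.11, adjusted p = 0.00258), with -0.78 and no call on its other probe set. SLC7A5, a carrier of leucine and other large amino acids, had levels of 6.99 and 7.12 at 6 h and 8.23 and 7.74 at 3 h, and fell by 0.93 (adjusted p = 0.0203), a call lost without either 6 h array (adjusted p = 0.0824 and 0.0674). Its 0 h mean was 7.33, so that SLC7A5 peaked at 3 h. ALDH18A1, of proline synthesis, fell by 0.87, a call lost without 6 h replicate 1 or either 3 h array. These were the 3 called, all lower, of 17 measured genes of ATF4 and the amino acid response. The share called lower over all tested genes was 2.02%. Of the 17, 3 had a positive change, and the median was -0.11. NOP16, a nucleolar assembly factor of the large ribosomal subunit, had levels of 6.81 and 6.69 at 6 h and 7.81 and 7.75 at 3 h, a fall of 1.03 (adjusted p = 0.00327), with a fall of 0.85 on its brighter probe set. NIP7 fell by 0.90, a call lost without 6 h replicate 1 or either 3 h array. NCL, nucleolin, went the other way, by 0.84, and was not called without either replicate 2 (adjusted p = 0.0577 and 0.0896). Of 22 measured ribosome biogenesis genes 1 was called higher and 2 lower, beside 5.57% and 2.02% of all tested genes. Their median change was -0.13. Among genes named after their values were seen, MRTO4, NOL9 and CCDC86, all nucleolar, fell by 0.88, 0.89 and 0.75, though NOL9 was not called without either replicate 2 (adjusted p = 0.0652 and 0.0669).

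**Figure D4:**
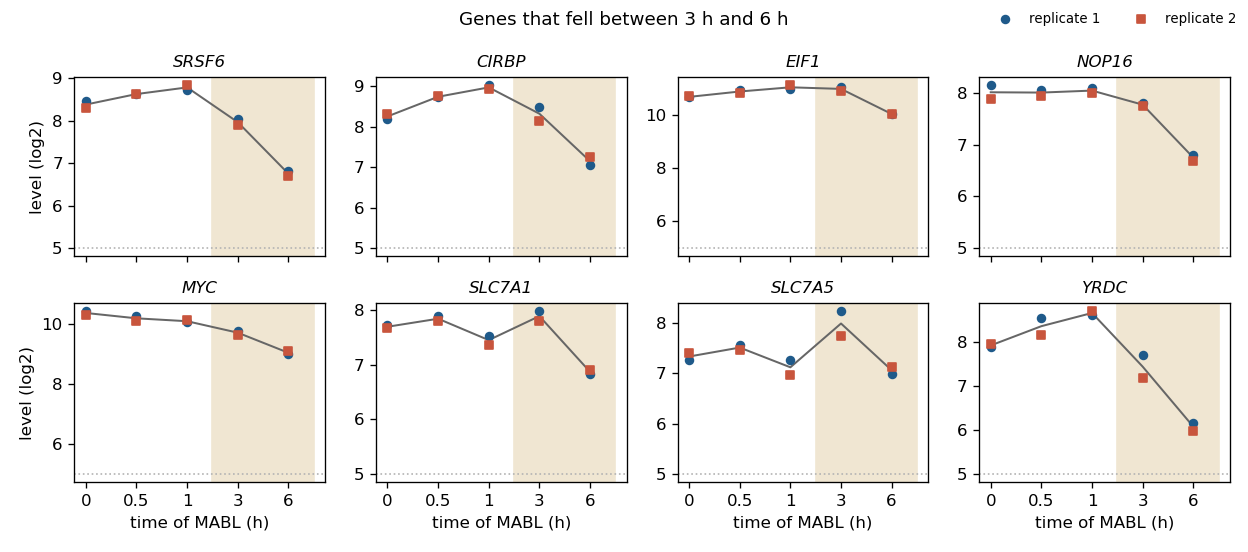
Log2 levels (vertical axes) of 8 genes that fell, by hours of MABL, drawn at equal steps; circles are replicate 1, squares replicate 2 and lines means. In each gene both shaded 6 h points lie below both shaded 3 h points, with EIF1 at 10.05 and 10.03 at 6 h and at 11.05 and 10.92 at 3 h; the dotted line is log2 5.

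MYC, a transcription factor of growth, had levels of 9.0 and 9.10 at 6 h and 9.79 and 9.66 at 3 h, with 10.38 at 0 h. It fell by 0.67 (SE 0.107, adjusted p = 0.0101) and kept the call as each of the 4 arrays was left out in turn. MLX, a partner in the same network, fell by 0.51 (adjusted p = 0.0407), a call that none of these omissions kept. Its other probe sets changed by -0.32 and -0.19. MYC and MLX were the 2 called, both lower, of 4 measured, beside 2.02% of all tested genes called lower. ODC1, the first enzyme of polyamine synthesis, had levels of 8.92 and 8.93 at 6 h and 9.72 and 9.55 at 3 h and fell by 0.71 (adjusted p = 0.00661). RHEB, the activator of mTORC1, fell by 0.69 and was not called without 6 h replicate 1 or either 3 h array. Of 9 measured immediate early genes IER3 and KLF10 rose by 1.84 and 1.30 and SRF fell by 0.77. The shares called over all tested genes were 5.57% higher and 2.02% lower. IER3 passed the filter only through the 6 h arrays. IER3 and SRF changed by 0.56 and -0.18 with the floor at 5 and were not called, and KLF10 was not called without either replicate 2. EGR1 stayed below the filter, at 4.13 and 4.35 at 6 h and 4.00 and 2.76 at 3 h on its brighter probe set.

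**Figure D5:**
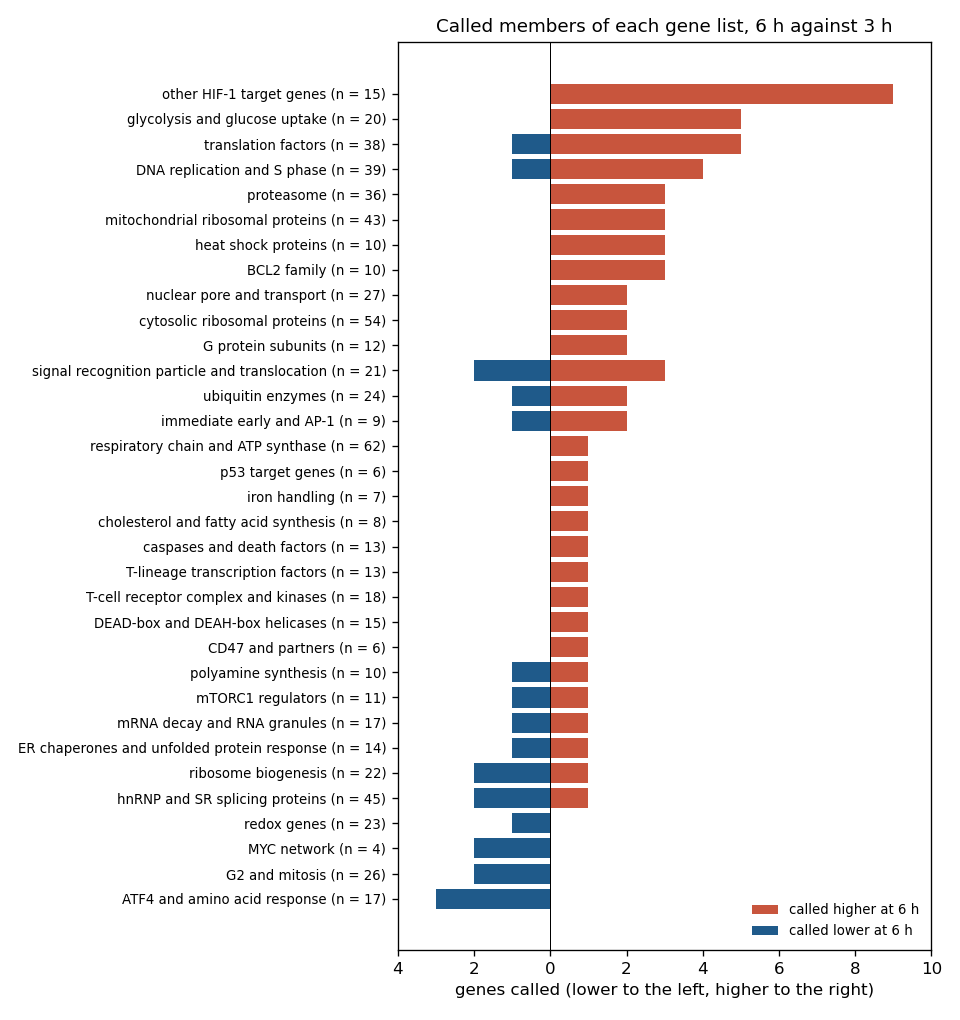
Bars give the number of genes called higher (right of 0) and lower (left of 0) at 6 h against 3 h in the gene lists. HIF-1 targets had 9 of 15 measured genes higher, 6 of the 15 having passed the filter only through the 6 h arrays, glycolysis had 5 of 20 and translation factors 5 of 38, against 5.57% of all tested genes.

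CD47 itself, the antigen, had levels of 8.87 and 8.96 at 6 h and 8.75 and 8.64 at 3 h. The change was 0.22 (SE 0.134, adjusted p = 0.399), and 0.17 on its other tested probe set. ID1, which blocks E proteins, changed by -0.09 (adjusted p = 0.651) and TXNIP, which binds thioredoxin, by -0.03 (adjusted p = 0.965). On its other tested probe set TXNIP changed by 0.45 and was not called. T-cell surface markers (12 measured), interferon-stimulated genes (11), histones (9), transcription and Mediator genes (27) and the ID and E proteins (5) each held 0 calls in limma. Over all tested genes 5.57% were called higher and 2.02% lower. In lists of this size 0 calls is near those shares and is not read as a result about the members. Of 18 measured genes of the T-cell receptor and its kinases ZAP70 rose, by 0.49, and of 13 T-lineage transcription factors BCL11A rose, by 0.79 (7.19 and 7.38 at 6 h, 6.45 and 6.54 at 3 h, adjusted p = 0.00587). The ZAP70 call was lost without 3 h replicate 2 or either 6 h array. The 62 measured genes of the respiratory chain and ATP synthase had a median change of -0.0098, with NDUFS1 up by 0.63 (adjusted p = 0.0298), a call that each of the 4 omissions ended. Of 26 genes of G2 and mitosis CDC25A and UBE2C fell, by 0.89 and 0.57; the first call was lost without 3 h replicate 1 or either 6 h array and the second when any of the 4 was left out. CSE1L and IPO5, carriers between nucleus and cytoplasm, rose by 1.34 and 1.31 among 27 measured genes of nuclear transport, and neither was called without either replicate 2. IPO5 passed the filter only through the 6 h arrays. With the floor at 5 it changed by 0.83 and was not called in limma (adjusted p = 0.0698). With the filter on the early arrays 1 gene of the list was called higher.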

How the data were processed

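Expression was measured on Affymetrix human arrays, 2 at each of 5 times, whose number limits the precision. The deposited scores were made by the authors with GCRMA, per the submitters' processing notes; version, genome build and scale are not given in the sources used here. Their square roots were read as log2 after the values were seen. Control probe sets (68 of 22283) and those under 25 on more than 8 arrays were left out. Gene symbols came from the platform annotation: 19071 probe sets had 1 symbol, of which 19059 matched RefSeq, 1043 had several and 2169 none.

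limma 3.58.1 in R 4.3.3 (lmFit, eBayes) fitted all 10 arrays with time as the factor (5 residual degrees of freedom) for the contrast 6 h minus 3 h, with Benjamini-Hochberg adjustment over all tested probe sets. The fit was also run on simulated data with known changes. These had a common spread and no array effects, so that run checks the code and not the calls reported. The 44 gene lists (1413 genes), 5 lists of cell type markers among them, were counted by the brightest probe set of each gene, with no set test. Each list count stands beside 5.57% of all tested genes called higher and 2.02% called lower. The members and lists were chosen with earlier results of these data known.

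Genes named were the 15 with the highest and the 15 with the lowest change among called probe sets of 1 symbol, up to 5 called members of each list with at least 3, and CD47, HIF1A, DDIT4, HSPA5, ID1, MYC, BNIP3, VEGFA, TXNIP and EGR1. Other genes were chosen after their values were seen: those so described in the report and every other named member of a list with fewer calls. The titles number the replicates without saying whether equal numbers belong together, and the fit used no pairing. Deviations of same-numbered arrays from their time's mean correlated at -0.231 for 6 h and 3 h. Over all pairs of times they correlated at -0.231 to 0.147, which does not settle the pairing. Alternatives covered scale, normalization, filter, floor, covariates, a replicate block and leaving out each array.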

Additional observations from a re-analysis of the deposited data

How the results depend on the processing

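Of 78 named and tested probe sets, 0 reversed direction under an alternative, though many calls were lost. Many alternatives could not have reversed them. The filters, the replicate block and the fit on 4 arrays leave the change itself as it is. Where the 6 h and 3 h arrays do not overlap, neither a rescaling nor leaving out an array can turn the sign. For all called probe sets, and then for those higher and lower, equal array medians gave 526, 325 and 201, with 61.8% higher, against 70.6% as reported. Quantile normalization again gave 524, 315 and 209, with 60.1% higher. No filter on low values gave 114, 79 and 35 of 22215, and the 6 h and 3 h arrays alone gave 8, 8 and 0. The spike-in covariate gave 159, 112 and 47. Without each of the 4 arrays in turn the counts ran from 142 to 369, from 83 to 325 and from 44 to 59, and 58.5% to 88.1% were higher. The fold rule passed 16 higher and 0 lower on log2 of the deposited values, and 60 to 243 higher and 9 to 35 lower without each array.

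Whether the replicate numbers pair the arrays is not known, and the replicate block gave 312, 219 and 93. Crossing the 6 h numbers in the block, an alternative chosen after seeing the data, gave 488, 354 and 134. Of 75 named and called probe sets 36 kept the call without each array in turn, as did 14 of the 15 highest and 11 of the 15 lowest. With no filter 29 held, with the 4 arrays alone 6 and with the floor at 5, 65. Log2 of the deposited values, the untransformed values, a filter at log2 7, the floor, the 18S covariate and, chosen after seeing the data, the filter on early arrays left each of the 3 counts within 1.5 times. Sizes of genes near or below log2 5 depend on the floor.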
